A study of Mus musculus with 4 samples.

Results

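RFX2 bound 397 promoters of the mouse testis genome in a simple arrangement, in which the peak met the promoter of a single gene and its summit lay upstream of the transcription start site (TSS). These peaks were selected on the combined list of 2726 RFX2 peaks. A peak was taken when it overlapped the promoter of a single gene among protein-coding and long non-coding RNA (lncRNA) genes, and that gene was protein-coding. The promoter ran from -1000 to +500 bp of the TSS in build GRCm38. For protein-coding genes this was the 5′-most annotated start of a protein-coding transcript, and the summit had to lie upstream of it. Other transcripts could start farther upstream, and in 16 members the summit lay inside the annotated member gene. The 397 peaks taken made up 14.6% of the combined list (95% Wilson interval 13.3 to 15.9%). They belonged to 397 different genes, which is 1.82% of the 21853 protein-coding genes. A promoter peak of any arrangement was found at 4.48% of these genes. Peak position and summit chose the members, so their positions and peak values are given as a description without a test.

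The peaks came from ChIP-seq, which sequences the chromatin fragments that an antibody against RFX2 pulls down. According to the sample labels the material was decapsulated testis of wild type mice of mixed C57BL/6, 129/Sv and FVB/N background, aged postnatal day 29 to 30. The text of the study instead describes germ cells dissociated from younger wild type animals, and these lists settle neither the age nor the material. There were 2 RFX2 ChIP samples and 2 input samples of chromatin sequenced without antibody, no group lacked RFX2, and the inputs entered only through the peak calling. Read numbers are not known for these lists. Either material mixes germ cell stages, and whole testis would add somatic cells, so that strong binding in few cells and weak binding in many cannot be told apart, and a peak list holds no expression by which the tissue could be checked against its markers.

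RFX proteins bind the X-box, an inverted repeat of a short half-site, through a winged-helix domain, and often as dimers. They are known as regulators of the genes that build cilia and flagella, and RFX2 is prominent in male germ cells, where round spermatids grow the sperm flagellum. The flagellum is built by intraflagellar transport (IFT), and its axoneme carries dynein arms, radial spokes and a central pair of microtubules.

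The X-box searched for was the palindrome GTTGCCATGGCAAC, made of the half-site GTTGCCA and its reverse complement, with at most 3 mismatches, which reads the same on both strands. The sequences below were read from GRCm38 in the direction of the gene, and capitals mark the 14 bases of the X-box with the fewest mismatches within 200 bp centred on the summit (the nearest to the summit among equals), with 8 bases on each side. The first set shows X-boxes from among the 12 strongest members, of which the very strongest, Fez1, is shown further below.
Cfap65 (chr1:74935615-74935644, - strand): ttgccgtcGTTGCCATGGGATAccaaaaga
Ttc30a2 (chr2:75978182-75978211, - strand): gttggcttGTTGCCATGGGAACaagcacac
Orai3 (chr7:127769000-127769029, + strand): cactcctgGTTGCCATGGAAATagcagcca
Pes1 (chr11:3963426-3963455, + strand): tagcaaccGTTGCCATGACAATtgaactcc
Wdr66 (chr5:123252080-123252109, + strand): gactagccGTTGCCATAGGGACggagcttg
Ppm1e (chr11:87359217-87359246, - strand): tagaaccgGTTGCCATGGCGACagtctcta
Cdk2ap2 (chr19:4096805-4096834, + strand): agggaaccGTTGCCATGGGAACaaatacag
Tmx4 (chr2:134644220-134644249, - strand): tgcagacgGTTGCTTTGGCAACcgccttcc
1700010I14Rik (chr17:8988300-8988329, + strand): tatttactGTTTCCATGGCAACtgcagctt
1110051M20Rik (chr2:91444673-91444702, - strand): gccgcctgGGTGCCATGGCAACagagacag
All 10 sites kept a recognisable inverted repeat, and in 7 of them the upstream half-site was intact with the differences in the downstream one. This count depends on the sites shown. In Fez1 the downstream half-site was the intact one. Over all 216 member sites the upstream half-site was intact in 61 and the downstream one in 48. The second set holds the only members whose site had no mismatch.
Ido2 (chr8:24577013-24577042, - strand): gtatggtgGTTGCCATGGCAACagacccaa
Kmt5c (chr7:4739554-4739583, + strand): gaagttttGTTGCCATGGCAACcaatggtc
Eif4a3 (chr11:119300359-119300388, - strand): gcgctgcgGTTGCCATGGCAACgcagtcag
Cfap97d1 (chr11:101984212-101984241, + strand): gtcatcccGTTGCCATGGCAACgaaggcag
The third set comes from genes of ciliary and sperm structures, and shows how far sites at such promoters departed from the palindrome.
Agbl3 (chr6:34780403-34780432, + strand): gtacagccGTTGCCCTGGCAACaagcggcc
Lrrc23 (chr6:124779745-124779774, - strand): ccgcccctGTTGCCATAACAACaataaata
Mks1 (chr11:87853183-87853212, + strand): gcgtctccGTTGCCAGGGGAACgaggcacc
Ift22 (chr5:136908109-136908138, + strand): tgttcccgGTCGCCGTGGAAACtgaccagc
Ift57 (chr16:49699199-49699228, + strand): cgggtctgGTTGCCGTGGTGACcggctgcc
Ift52 (chr2:163016986-163017015, + strand): tgtttcccGTTTCCATGGCAACcgttggcc
Bbs7 (chr3:36613489-36613518, - strand): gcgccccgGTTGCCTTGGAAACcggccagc
Rsph4a (chr10:33905008-33905037, + strand): agcctgggGTTGCTATGGAGACcggacgct
Tmem107 (chr11:69070789-69070818, + strand): cggacgcaGTTACCATGGCAGCcgggcggc
Cfap221 (chr1:119997219-119997248, - strand): gcgtccgcGTTGTCATGGCGACgctgtgag
Dpy19l2 (chr9:24696269-24696298, - strand): gtttcacgGTCGCCATGACGACgaggctgc
The last set gives 120 bp around the summit for promoters on which later comparisons turn. Capitals mark X-boxes in Fez1 and Foxj1. In Lztfl1, Fzr1, Cfap54 and Tekt2 they mark paired half-site cores at another spacing, and in Rsph14 and Rfx2 there are no capitals because neither kind of site was found.
Fez1 (chr9:36821775-36821894, + strand): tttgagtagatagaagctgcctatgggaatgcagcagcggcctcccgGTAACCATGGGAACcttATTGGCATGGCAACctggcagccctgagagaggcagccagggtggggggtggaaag
Foxj1 (chr11:116335355-116335474, - strand): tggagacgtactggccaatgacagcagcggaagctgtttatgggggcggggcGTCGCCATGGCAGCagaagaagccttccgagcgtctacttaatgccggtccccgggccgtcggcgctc
Lztfl1 (chr9:123717717-123717836, - strand): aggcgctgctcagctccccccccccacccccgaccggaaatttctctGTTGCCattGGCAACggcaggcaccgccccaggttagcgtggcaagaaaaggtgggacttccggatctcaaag
Fzr1 (chr10:81378796-81378915, - strand): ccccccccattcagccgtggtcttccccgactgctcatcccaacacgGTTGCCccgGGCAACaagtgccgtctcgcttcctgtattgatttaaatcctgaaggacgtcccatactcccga
Cfap54 (chr10:93081594-93081713, - strand): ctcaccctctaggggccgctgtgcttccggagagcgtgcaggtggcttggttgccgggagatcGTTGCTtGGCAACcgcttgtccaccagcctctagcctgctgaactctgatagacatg
Tekt2 (chr4:126325666-126325785, - strand): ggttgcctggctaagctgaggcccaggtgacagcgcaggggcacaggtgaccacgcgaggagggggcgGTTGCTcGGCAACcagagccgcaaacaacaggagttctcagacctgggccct
Rsph14 (chr10:75032538-75032657, - strand): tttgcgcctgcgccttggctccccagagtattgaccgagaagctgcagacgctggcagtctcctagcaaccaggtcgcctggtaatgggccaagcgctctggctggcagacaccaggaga
Rfx2 (chr17:56831155-56831274, - strand): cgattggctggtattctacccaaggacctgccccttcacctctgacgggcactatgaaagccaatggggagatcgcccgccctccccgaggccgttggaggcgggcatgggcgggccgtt
In the promoter of Fez1, which encodes an adaptor of kinesin transport in neurons, a pair of X-boxes stood 3 bases apart. In Lztfl1 and Fzr1 both cores were intact with 3 bases between them instead of 2.

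Member peaks reached the very top of the list. Their -log10 p had a median of 110 (range 43.5 to 493) against 82.1 over all combined peaks, and their fold enrichment over local background had a median of 15.1 (range 5.86 to 69.5) against 17.0. The median -log10 p was 99.6 for single-gene promoter peaks with the summit at or downstream of the TSS. It was 113 for promoter peaks at divergent gene pairs and 74.0 for peaks outside promoters. The strength of members was thus near that of other promoter peaks. Of the 100 strongest combined peaks 26 were members, and of the 10 strongest 4 were. These included Fez1, Cfap65, a gene of the central pair apparatus, and Ttc30a2, an IFT-B subunit.

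The Fez1 peak was the strongest of the combined list, with a score of 475 in replicate 1 and 224 in replicate 2, on the -log10 scale of each sample's own list. Cfap65 had scores of 354 and 149, and Ttc30a2 had 337 and 116. In both samples these peaks ranked far above the median member, at 81.0 in replicate 1 and 37.1 in replicate 2. Among the remaining genes of the 12 strongest peaks, Wdr66, which encodes an axonemal protein also called CFAP251, scored 275 and 198. Tmx4, which encodes a thioredoxin-related membrane protein of the endoplasmic reticulum, scored 300.3 and 239, the latter second in replicate 2. The others described here scored 255 to 278 in replicate 1 and 121 to 129 in replicate 2. They were Orai3, a subunit of store-operated calcium channels, Pes1, which acts in ribosome biogenesis, the protein phosphatase gene Ppm1e, Cdk2ap2, which encodes a CDK2-associated protein, and the uncharacterised 1700010I14Rik and 1110051M20Rik. The strongest members were thus not restricted to genes of cilia.

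At the other end, the 4 weakest members were Pold2, a subunit gene of DNA polymerase delta, Rfx2 itself, the tubulin gene Tubb4b, and Tekt2, which encodes a filament protein of the sperm axoneme. Their scores were 34.2 and 13.7 for Pold2, 45.9 and 16.0 for Rfx2, 37.7 and 7.43 for Tubb4b, and 22.7 and 15.7 for Tekt2, in replicates 1 and 2. All 4 lay below the lower quartile of members in both samples, which was 50.3 in replicate 1 and 24.2 in replicate 2.

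Both replicate lists met every member, 397 of 397, where 99.9% of all combined peaks were met. The methods of the study describe peaks kept for their reproducibility between both replicates, from permissive calls per replicate. If the combined list is that selection, presence in both replicates was fixed by it, and the replicate lists, with 39825 peaks in replicate 1 and 21274 in replicate 2, may also share reads with it. The overlap is a description and no replication. The score was higher in replicate 1 for 385 of 397 members, and for 2666 of the 2723 combined peaks met by both lists. Counted from the highest peak of each list, the median rank was 971 in replicate 1 and 793 in replicate 2, in lists of unequal length. Spearman's rho of the scores across members was 0.792, across peaks that share the same pair of libraries. Among the 1000 highest peaks of both lists were 183 members (46.1%), against 27.6% of all combined peaks. The share was 39.8% for downstream single-gene peaks, 49.3% for divergent pairs and 19.3% for peaks outside promoters.

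**Figure D1:**
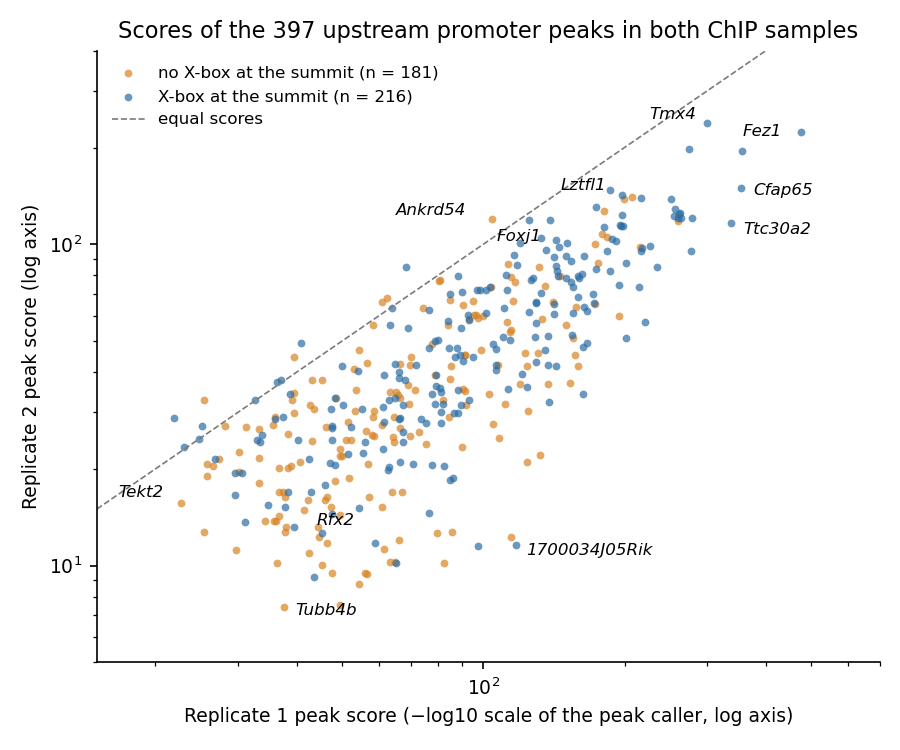
Score of each member peak in replicate 1 (x) and replicate 2 (y), both on logarithmic axes, coloured by whether an X-box was found within 200 bp centred on the summit, with the dashed line at equal scores. The points run from Tubb4b and Tekt2 at the lower left to Fez1 at 475 and 224, and 385 of 397 lie below the line. Of the combined peaks met by both replicates, 2666 of 2723 scored higher in replicate 1.

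For a few members the ranks in the 2 lists, which differ in length, were far apart. Ttc30a2 ranked 9 in replicate 1 and 73 in replicate 2. The uncharacterised gene 1700034J05Rik had scores of 117 and 11.6 and ranks of 483 and 2968. March10, which encodes a ubiquitin ligase of elongating spermatids, ranked 24 and 139. The opposite order was seen for Ankrd54, an ankyrin repeat gene, with scores of 104 and 120 and ranks of 611 and 66. Mink1, a protein kinase gene, ranked 160 and 21, and Ap3d1, a subunit gene of the AP-3 vesicle adaptor, ranked 1214 and 181. With 1 value per sample these differences have no error.

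Summits lay close to the TSS. The median position was -99 bp (quartiles -204 and -38 bp), 128 of 397 summits (32.2%) lay within 50 bp of the TSS, and 329 peaks contained the TSS itself. The members nearest to the threshold were Cfap221, a central pair gene, at -1 bp, with Dpy19l2, needed for acrosome attachment, and Lsm10, which acts in histone pre-mRNA processing, at -3 bp. Just outside it, with the summit on the TSS itself, were Map9, Spag6l and 1700021F07Rik. The -log10 p was 183, 176 and 113 for the former and 208, 146 and 146 for the latter, so the division at the TSS separated peaks of similar strength.

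Only 9 members had the summit beyond -1000 bp, where the peak reached into the promoter with its edge. The farthest were Traf3 at -1762 bp, which encodes an adaptor of immune receptors, Rbm12b2 at -1372 bp, and Junb at -1333 bp, which encodes an AP-1 transcription factor. The Traf3 summit lay inside the gene 4930595D18Rik, and the Rbm12b2 summit lay inside Tmem67, itself a transition zone gene of the cilium. In all, 37 summits were inside another protein-coding gene, 24 inside a lncRNA gene and 339 in neither. The summit lay in an exon of another gene in 20 members. Among these, that of Ttc30a2 lay in Ttc30a1 and that of Orai3 in Fbxl19. The summits of Pes1 and Lztfl1 lay inside 4930556J24Rik and Ccr9. The assignment of such peaks to the member gene rests on position alone.

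**Figure D2:**
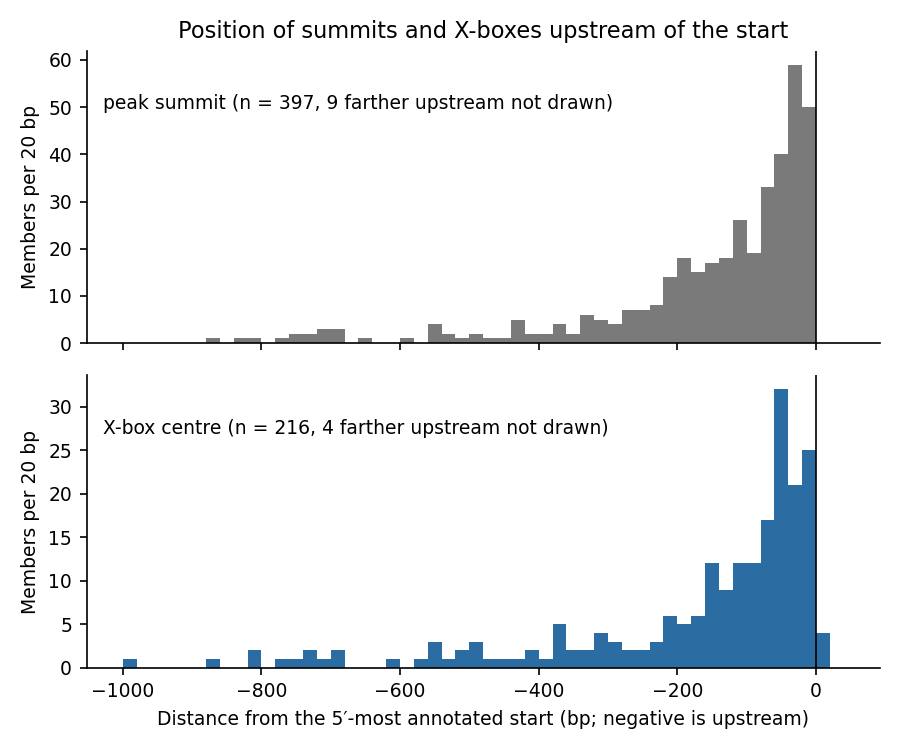
Numbers of members per 20 bp by the distance of the summit (upper panel) and of the X-box centre (lower panel) from the TSS, in bp, with the line at the TSS. Both rise towards the TSS, with medians of -99 and -96.5 bp, and 4 X-boxes beyond -1000 bp and 9 such summits are not drawn.

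An X-box was present within 200 bp centred on the summit in 216 of 397 members (54.4%, 95% interval 49.5 to 59.2%), where 75.4% of all combined peaks had one. The same search 1000 bp to the right of the member summits found 2 (0.504%). The G+C content of these flanking windows was 46.1% ± 9.32 (SD, n = 397) against 58.3% ± 7.30 at the summits, and its part in the difference was not tested. The centre of the X-box with the fewest mismatches was a median of 6.5 bp from the summit, and within 10 bp in 134 of the 216. Sites in 9 members covered the TSS or lay downstream of it, among them Cfap221 with the centre at 0.5 bp and Dpy19l2 at 9.5 bp. Only 8 of the 181 members without an X-box at the summit held one elsewhere in the peak.

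The share with an X-box was 84.6% in peaks outside promoters, and members differed from it by -30.2 percentage points (95% Newcombe interval -35.4 to -25.1, two-sided Fisher's exact test, p = 1.4e-35, adjusted p = 4.21e-35 over 3 comparisons). Peaks with the summit at or downstream of the TSS had 60.6%, a difference of -6.24 points (interval -14.2 to 1.98, Fisher's exact test, adjusted p = 0.221), and peaks at divergent gene pairs had 53.1%, a difference of 1.33 points (interval -6.92 to 9.61, adjusted p = 0.798). Neither of the latter passed the test, and the intervals leave room for differences of several points. Peaks are not replicates of a condition, and the intervals and tests cover counting error only.

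The whole replicate lists gave other values for the difference from peaks outside promoters, with the peak centre in place of the summit. It was -0.389 points in the list of replicate 1 alone (Fisher's exact test, adjusted p = 0.771) and 6.29 points in that of replicate 2 alone (adjusted p = 8.93e-05). When each list was reduced to its 2726 highest peaks, an alternative chosen after seeing the data, the differences were -37.3 and -28.8 points. The difference from downstream peaks was -10.1 points with the peak centre (Fisher's exact test, adjusted p = 0.0206) and -8.83 points in the list of replicate 1 (adjusted p = 0.000787).

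Within the members, the X-box share followed peak strength. In the strongest quartile by -log10 p it was 78.0% (78 of 100), in the second 52.5%, in the third 53.5%, and in the weakest 33.3% (33 of 99). The 95% interval began at 68.9% for the strongest quartile and ended at 43.1% for the weakest. Downstream peaks went from 70.4% in their strongest quartile to 40.7% in their weakest, and divergent pairs from 73.6 to 36.5%. In peaks outside promoters the quartiles had 85.1, 86.9, 85.1 and 81.3%. The differences between these trends were not tested. Members with an X-box had a median -log10 p of 124 and a median fold enrichment of 16.1, and those without had 86.3 and 13.9. By distance the share was 49.2% for summits less than 50 bp upstream and 71.9% for the 32 members with summits 500 bp or more upstream, with overlapping intervals of 40.7 to 57.8% and 54.6 to 84.4%.

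**Figure D3:**
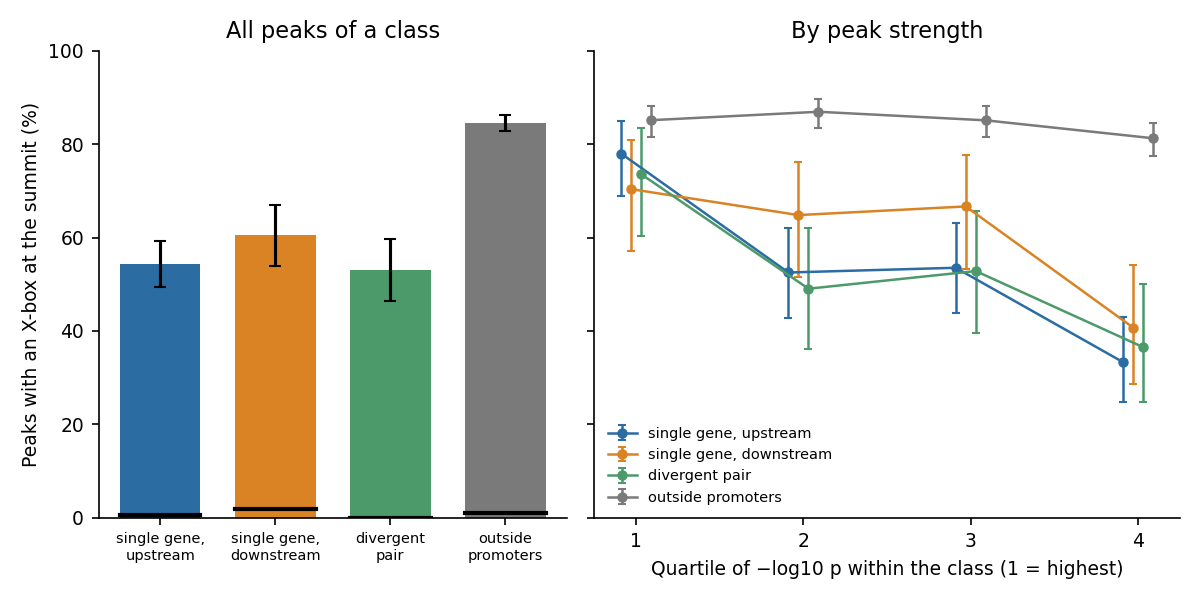
Share of peaks with an X-box at the summit, in percent, for each class of peaks (left, black lines mark the share 1000 bp away) and by quartile of -log10 p within the class (right), with 95% Wilson intervals as error bars. Upstream single-gene peaks have 54.4% overall and go from 78.0% in the strongest to 33.3% in the weakest quartile, whereas peaks outside promoters stay between 81.3 and 86.9%.

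The X-boxes of members were seldom perfect. Only 4 members held the exact palindrome shown above, at Ido2, which acts in tryptophan breakdown, Kmt5c, a histone H4 methyltransferase gene, Eif4a3, a helicase gene of the exon junction complex, and Cfap97d1, needed for the sperm flagellum. Their scores were 198 and 114, 214 and 73.5, 155 and 73.7, and 128 and 78.3 in replicates 1 and 2, with upper quartiles of members at 131 and 65.95. Cfap97d1 lay below this quartile in replicate 1, and the other 3 lay above it in both samples. One mismatch was found in 32 members, 2 in 86 and 3 in 94. Sites with at most 1 mismatch were thus present in 36 of 397 members (9.07%) and in 686 of 1774 peaks outside promoters, a difference of -29.6 points (interval -33.0 to -25.7, Fisher's exact test, adjusted p = 3.00e-34). The share was 7.87% in downstream peaks (adjusted p = 0.655) and 3.79% at divergent pairs (difference 5.28 points, interval 0.998 to 9.003, Fisher's exact test, adjusted p = 0.0305). These 3 comparisons were chosen after the values were seen.

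Departures from the palindrome gathered at certain positions, counted from 1 at the 5′ end on the strand of the gene. The outermost positions 1, 2 and 14 matched in 95.4, 96.3 and 95.8% of the 216 sites. The weakest were 11 (63.9%), 12 (70.8%) and 4 (73.6%). At position 12 the commonest change was A12G, in 45 sites, and at position 3 it was T3C, in 36 sites, which are the same change read from either strand. Foxj1, the regulator of motile cilia, carried T3C and A13G, and Ift57 carried A7G, C11T and A12G. Compared with sites of peaks outside promoters, read on the reference strand, 6 of 14 positions matched less often (Fisher's exact test, adjusted p at most 0.0136), and none more often. Position 12 differed by -13.9 points (interval -20.5 to -7.94, Fisher's exact test, adjusted p = 2.26e-05) and the centre of the repeat at position 8 by -11.9 points (interval -18.2 to -6.43, adjusted p = 5.41e-05). This comparison was also chosen after the values were seen, and member sites had more mismatches in all. Among sites with exactly 2 mismatches (86 in members, 512 outside promoters), position 12 matched in 80.2 and 81.1%, position 11 in 70.9 and 68.8% and position 8 in 84.9 and 88.7%. Among those with 3 (94 and 303), position 12 matched in 55.3 and 68.6%, position 8 in 64.9 and 77.9%, and position 3, in the other direction, in 69.1 and 61.7%. At equal numbers of mismatches the differences were thus smaller at 2 mismatches for positions 8, 11 and 12, and turned at position 3 with 3 mismatches and at position 11 with 2. They were not smaller at every position. Position 13 matched in 88.4 and 96.1% at 2 mismatches and in 90.4 and 91.7% at 3. Position 7 matched in 82.6 and 84.6% at 2 and in 68.1 and 80.9% at 3. The half-site nearer to the gene had more mismatches in 99 sites and fewer in 75 (two-sided exact binomial test, p = 0.0809).

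**Figure D4:**
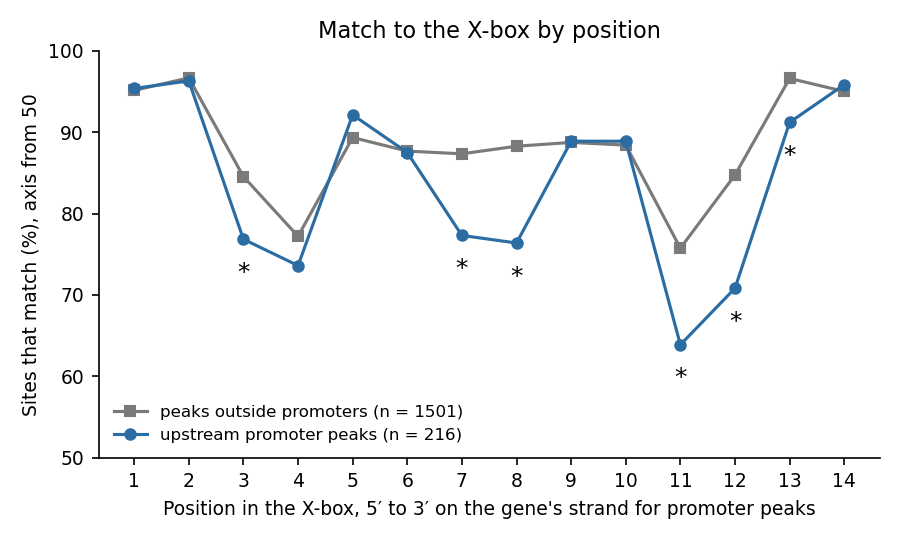
Share of sites that match the X-box at each of its 14 positions, in percent on an axis that begins at 50, for the 216 upstream promoter sites and the 1501 sites of peaks outside promoters, with asterisks where the adjusted p of Fisher's exact test was below 0.05. The sites are not matched for their number of mismatches. Members are lower at positions 3, 7, 8, 11, 12 and 13, and lowest at position 11 with 63.9%.

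More than 1 X-box at the summit was found in 13 members (3.27%), among them Fez1, Orai3, Tmx4 and Mink1. The share was 5.21% over all combined peaks and 6.20% in peaks outside promoters. In Fez1 the site centres were at -35.5 and -18.5 bp from the TSS. In Tmx4 the centres were at -112.5 and -89.5 bp. Those of Orai3 at -800.5 and -730.5 bp and of Mink1 at -441.5 and -374.5 bp were farther apart.

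Several strong members had no X-box. Lztfl1, a regulator of the BBSome that carries ciliary cargo, scored 207 and 141 in replicates 1 and 2. Pnma1, a neuronal antigen gene, scored 261 and 118, and Rsph14, a radial spoke gene, scored 199 and 138. Kif1bp, which encodes a kinesin binding protein, and Rpf2, which acts in ribosome assembly, followed with 184 and 105, and with 173 and 100.5. These 5 peaks ranked from 90 to 122 in the combined list. An exact half-site was present in 31 of the 181 members without an X-box (17.1%), and in 35.8% of all members against 1.26% in the flanking windows. Over all combined peaks these shares were 19.0% without an X-box and 55.0% in all. In peaks outside promoters they were 23.8 and 64.5%.

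Since Lztfl1 was seen to hold 2 intact cores at another distance, the spacing of paired half-sites was examined in all members, a search chosen after the sequences were seen. The 6-base cores GTTGCC and GGCAAC were allowed 2 mismatches together and were set 0 to 8 bases apart, where the X-box has 2 bases between them. In members with an X-box, 80.6% had such a pair with 2 bases between the cores, a share that the definition of the X-box helps to fix. In the 181 members without one, 41 (22.7%, interval 17.2 to 29.3%) had a pair with 1 base between the cores and 18 (9.94%, interval 6.38 to 15.2%) with 3 bases. The spacings of 0, 4 and 5 were found in 1, 2 and 1 of these members, and those of 6, 7 and 8 in 3, 5 and 6. The spacing of 2 was found in 10, a number that the lack of an X-box limits. In the flanking windows 1000 bp away, a pair at each of the spacings 0 to 8 was found in at most 2 of 397.

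Counted together, 275 of 397 members (69.3%, interval 64.6 to 73.6%) had an X-box or paired cores with 1 or 3 bases between them. These spacings were not particular to members. Among peaks without an X-box, either was found in 32.6% of members, 36.3% of peaks outside promoters and 24.7% of downstream peaks. The median -log10 p was 124 for members with an X-box, 94.2 for the 59 with the other spacings alone and 82.5 for the 122 with neither. Median fold enrichment did not follow this order, with 13.8 for the other spacings alone and 13.9 for neither. Cfap54, a large central pair protein gene, and Tekt2 had 1 mismatch at the spacing of 1 base, with scores of 215 and 98.0 for Cfap54. Fzr1, an activator gene of the anaphase-promoting complex, had both cores intact with 3 bases between them and scored 173 and 65.4. Pnma1, Rsph14, Kif1bp and Rpf2 remained without any of these sites.

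Peaks outside promoters without an X-box had the spacing of 1 base in 17.6% and of 3 bases in 19.8%. The 3-base spacing was less frequent in members, by a difference of -9.84 points (interval -16.1 to -3.07, Fisher's exact test, adjusted p = 0.0225 over 4 comparisons), and the 1-base spacing differed by 5.07 points (interval -2.33 to 12.8, adjusted p = 0.249). Downstream promoter peaks without an X-box had 12.9 and 11.8%, and neither spacing passed Fisher's exact test against them (adjusted p = 0.139 and 0.671).

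**Figure D5:**
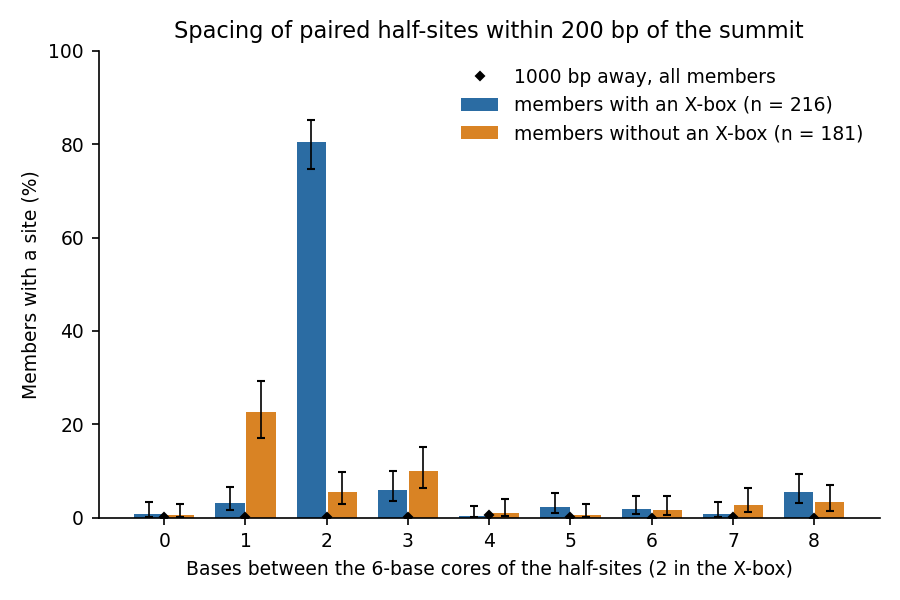
Share of members, in percent, with paired half-site cores (at most 2 mismatches over both) within 200 bp centred on the summit, by the number of bases between the cores, for members with and without an X-box, with 95% Wilson intervals as error bars and diamonds for the windows 1000 bp away. Members with an X-box are highest at 2 bases, the spacing by which the X-box is defined, and those without stand at 22.7% for 1 base and 9.94% for 3 bases.

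The promoters of member genes were also compared with those of the genes whose peak summit was at or downstream of the TSS, in the window from -250 to +50 bp, for letters searched on both strands. The GC box GGGCGG, bound by SP factors, was present in 58.2% of the 397 member promoters and in 44.9% of the 216 others, a difference of 13.3 points (interval 5.002 to 21.3, Fisher's exact test, adjusted p = 0.0078). Among the 20873 protein-coding promoters without any peak, 43.3% held it. With 1 annotated protein-coding TSS per gene, an alternative chosen after seeing the data, the shares were 50.8% of 122 and 32.3% of 65 (exact p = 0.0202, unadjusted). The GC box is made of G and C, and G+C content was 58.6% ± 8.37 (SD, n = 397) in member promoters and 54.7% ± 7.28 (SD, n = 216) in the others. The ratio of observed to expected CpG had means of 0.723 and 0.602, and the part of base composition in the result was not tested. The window also held the median summit of members, at -99 bp, but not that of downstream peaks, at 101.5 bp. Within 200 bp centred on the summit, G+C content was 58.3% in members and 60.9% in downstream peaks. The part that the placement of the summit by the rule had in the GC box difference was not tested.

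Of the 9 motifs tested, the GC box and the X-box half-site passed, and both are given as a description because the rule placed the summit upstream. The other 7 did not pass. The CCAAT box (CCAAT), bound by NF-Y, was present in 48.6% of member promoters, 43.1% of downstream ones and 38.6% of those without a peak (difference of members from downstream ones 5.56 points, interval -2.70 to 13.6, Fisher's exact test, adjusted p = 0.338). The ETS site CCGGAAG was present in 21.4, 16.2 and 10.4%, in the same order (Fisher's exact test, adjusted p = 0.306). The TATA box TATAAA had 7.05, 11.1 and 12.9% (Fisher's exact test, adjusted p = 0.287). The E-box CACGTG, the NRF1 site GCATGCGC, the cAMP response element TGACGTCA and the YY1 site AAGATGGC were in 12.3, 5.29, 5.04 and 4.79% of member promoters, with adjusted p between 0.338 and 1. The X-box half-site GTTGCCA was in 30.2, 16.2 and 3.44% and the X-box in 43.1, 21.8 and 1.79%, in the same order, shares that the placement of the summit by the rule helps to fix.

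Genes of cilia and flagella made up a visible portion of the members. Of 289 annotated genes in 21 lists of ciliary, sperm and germ cell functions, 39 were members (13.5%), beside 1.82% of all protein-coding genes, and 18 of the 39 had an X-box. The lists were chosen with earlier results of these data known, so the counts are a description. The share was not particular to members. A promoter peak of any arrangement was found at 4.48% of all protein-coding genes, but at 12 of 15 central pair genes and 17 of 23 tektin and doublet microtubule genes. Of the former, 6 were members and 5 had a downstream peak, and of the latter 5 and 7, although downstream peaks were fewer in all (216 against 397).

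Among subunits of IFT-B, the complex that carries cargo towards the ciliary tip, 7 of 18 were members and 13 had a promoter peak of some arrangement. Beside Ttc30a2 these were Ift22 (scores of 159 and 79.5 in replicates 1 and 2), Ift57 (98.4 and 71.8), Ift81 (105 and 27.5), Ift52 (88.4 and 29.9), Ift74 (64.4 and 24.2) and Traf3ip1 (45.4 and 12.6). Ift81 and Ift74, whose products form a tubulin-binding pair, were those without an X-box. Of 7 genes of IFT-A and its cargo adaptor Tulp3, only Wdr19 was a member, with 25.4 and 12.7. Of 5 dynein-2 genes 0 were members although 4 had another promoter peak, and of 5 kinesin-2 genes 0 had any promoter peak in the combined list.

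Of 13 BBSome and chaperonin-like genes, 3 were members. They were Lztfl1, Bbs7 (66.04 and 39.96) and Ttc8 (33.3 and 18.1), of which only Bbs7 had an X-box. In the transition zone, which gates the base of the cilium, 2 of 22 annotated genes were members, Mks1 (164 and 92.1) and Tmem107 (63.3 and 56.0), both with an X-box. Another 11 of these 22 had promoter peaks of other arrangements.

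Radial spoke and central pair genes had the highest shares of members among these lists. Of 12 radial spoke genes 5 were members, namely Rsph14, Lrrc23 (166 and 62.2), Rsph4a (64.7 and 33.1), Rsph10b (53.2 and 30.3) and Dydc1 (49.6 and 7.53). Of 15 central pair genes 6 were members, namely Cfap65, Cfap54, Spag16 (160 and 78.3), Cfap221 (116 and 92.4), Cfap74 (91.9 and 31.7) and Spag17 (44.7 and 12.3). Cfap65, Spag16 and Cfap221 had an X-box, and the other 3 had none. The dynein arms gave few members, with Armc4 (69.95 and 44.7) among 14 genes of the outer arm and its docking, 0 of 10 inner arm genes, and Dnaaf3 (195 and 59.9) among 11 genes of arm assembly, 10 of which had a promoter peak of some arrangement. Ccdc65 (93.1 and 58.5) was the single member among 11 genes of the nexin-dynein regulatory complex and the axonemal ruler.

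Of 23 tektins and proteins of the doublet microtubule lumen, 5 were members. Cfap20 was the strongest with 197 and 114, followed by Efcab6 (65.2 and 10.202), Efhb (51.7 and 18.8), Tekt3 (25.8 and 19.0) and Tekt2. Of 19 genes that add or remove glutamate chains on tubulin, Agbl3 (139 and 119) and Ttll1 (25.4 and 32.8) were members. Of 19 centriole and distal appendage genes, Fbf1 (45.4 and 10.1) was the only one. No member came from 8 genes of ciliary lipidated cargo transport or from 14 Hedgehog pathway genes, and 0 of these 22 had any promoter peak in the combined list.

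Of 13 RFX and ciliogenesis regulator genes, Foxj1 (145 and 98.1) and Rfx2 were members. Among germ cell lists, Dpy19l2 (111 and 63.2) was the member of 14 acrosome genes and Msh5 (36.6 and 14.3), which acts in meiotic crossing over, that of 20 meiotic prophase genes. Of 16 late haploid sperm genes, including those of the sperm nucleus, 0 had a promoter peak.

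Gene families by symbol were also counted, a choice made after the values were seen. Of all protein-coding genes 1.82% were members. Members made up 11 of 31 Cfap genes (35.5%), 10 of 139 Ccdc coiled-coil genes (7.19%) and 5 of 64 Wdr genes (7.81%). They made up 7 of 394 Zfp zinc finger genes (1.78%, near the share of all genes), 1 of 98 ribosomal protein genes (1.02%, Rps3) and 0 of 1133 olfactory receptor genes, the last of which allows a share of up to 0.265%. In the other families counted the share ran from 1.24% (3 of 242 Tmem genes) to 37.5% (3 of 8 Rsph genes). By chromosome the share of protein-coding genes was highest on chromosome 10 (31 of 1020, 3.04%) and was 0.738% on chromosome X (7 of 948) and 0 of 183 genes on chromosome Y.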

How the data were processed

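RFX2 ChIP-seq of 2 testis samples was deposited by the authors as peak lists. Per the labels and the methods of the study, bases were called with CASAVA 1.8.2, uniquely mapped reads were placed on GRCm38 (Ensembl release 70) with Bowtie 0.12.7, and peaks were called against input with MACS2 2.0.10.20130520. Reads that mapped to the human genome had been removed from a contaminated run of replicate 2, which can lower the coverage of conserved sequence in that sample only. The deposited replicate lists hold 1 value per peak, a −log10 scale of p or q, and which of the 2 is not stated. The methods describe permissive calls per replicate and a selection of peaks by the irreproducible discovery rate between replicates, and do not say which step each deposited list comes from. The lowest replicate values, 2.03 and 2.08, are those of a permissive call. The combined list, treated as a call on pooled reads after such a selection, holds in the deposited columns a score, the summit, −log10 p and q, and a ratio of coverage to local background (fold enrichment).

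Sequences came from the GRCm38 genome and gene models from GENCODE release M21, so TSS positions can differ from those the authors used. The TSS was the 5′-most start of protein-coding transcripts, and for lncRNA genes that of any transcript. With the 5′-most start of any transcript for all genes there were 387 members. Divergent pairs were peaks that met the promoters of exactly 2 genes on opposite strands, at least 1 of them protein-coding. A replicate met a member when any base overlapped (1 bp), and the highest such peak gave its score and rank. Shares carry Wilson intervals, differences Newcombe intervals, and Fisher's exact tests (scipy 1.17.1) were two-sided with Benjamini-Hochberg adjustment within each family and a threshold of 0.05. Scripts were tested on simulated data. Named genes were the 12 strongest and 4 weakest members, listed genes, the 3 members nearest to and farthest from the TSS with the 3 nearest peaks outside, the 5 strongest members with an exact X-box, without an X-box or with more than 1, and the 3 largest rank shifts each way. Members, lists and named genes were chosen with earlier results of these data known. A gene covered by this rule is not reported here. Fzr1 and Rps3 were named after their values were seen. Alternatives covered the promoter window, the TSS, lncRNA genes, list length, the summit, X-box mismatches, the search window, overlap and each replicate. The inputs were not used directly.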

Additional observations from a re-analysis of the deposited data

How the results depend on the processing

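The number of members, their X-box share, its 3 differences, the overlap with both replicates and the number of differing promoter motifs were recomputed, 64 values in all, of which 44 were called the same. For differences this meant the same sign and the same side of the threshold, and for shares a value within the error. Counts of members and motifs were called the same within a set ratio to the main value. Of the other results, only the GC box difference was recomputed, as given with it. The strongest 50% of the combined list gave 258 members with an X-box share of 64.0%. With the peak centre in place of the summit, the share was 26.8%, the difference from downstream peaks -10.1 points and that from divergent pairs -1.64 points. With at most 2 mismatches the share was 30.7%. A reciprocal overlap of 50% left 87.2% of members met by both replicates. The whole list of 1 replicate alone, with peak centres, gave 873 to 1137 members, X-box shares of 21.5 to 29.4%, and differences of -8.83 to -2.52 points from downstream peaks, -1.98 to 4.02 points from divergent pairs and -0.389 to 6.29 points from peaks outside promoters. Reduced to the length of the combined list, an alternative chosen after seeing the data, replicates 1 and 2 gave shares of 26.8 and 40.3% and differences from divergent pairs of -0.564 and 8.68 points (the latter with Fisher's exact test, adjusted p = 0.0430), and replicate 1 a difference from downstream peaks of -16.2 points. The motifs that passed the test were 2, the GC box and the X-box half-site, in the main window, in the window from -500 to +100 bp and on the gene strand alone. For both, the windows were tied to the placement of the summit by the rule. The cause of these changes was not tested. No paired analysis was possible because the inputs, which share replicate numbers with the ChIP samples, have no values of their own here. Depth is unknown, so no limit of detection can be given.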
